A study of Rattus norvegicus with 8 samples.

Results

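Insulin receptor signalling and the traffic of the glucose transporter GLUT4 were followed in 8 genes: Insr, Irs1, Irs2, Pik3r1, Akt2, Tbc1d4, Slc2a4 and Trarg1. They were taken by gene symbol from both deposited expression tables, and all 8 were listed once in each table, among 14295 genes for the precursors and 18236 genes for the adipocytes. RNA sequencing covered 8 libraries in 4 groups of 2. ASC_HFS and ASC_C were wild-type adipose-derived stem cells from the inguinal fat of Wistar rats kept for 6 months on a high-fat sucrose (HFS) diet or a control (C) diet. AD_HFS and AD_C were adipocytes grown from such cells by induction for 3 days (insulin at 10.0 µg/mL, dexamethasone at 5.0 µM and the phosphodiesterase inhibitor IBMX at 0.5 mM), followed by 7 days of maintenance with insulin, so insulin and the glucocorticoid were given to AD_HFS and AD_C alike. Nothing in the labels ties the 2 libraries of a group to different rats or dishes, so each p measures only the spread between these libraries, which may be technical.

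Insulin binds the receptor encoded by Insr, which phosphorylates the docking proteins IRS1 and IRS2. These recruit phosphatidylinositol 3-kinase, whose regulatory subunit p85α is encoded by Pik3r1, and the lipid it makes activates the kinase AKT2. AKT2 phosphorylates the Rab GTPase-activating protein encoded by Tbc1d4 (AS160), which releases vesicles carrying GLUT4, the product of Slc2a4, to the surface of fat and muscle cells. Trarg1 encodes a membrane protein of these vesicles that aids GLUT4 traffic in fat cells.

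The sequences before the transcription start are shown for Insr and Tbc1d4, because both genes were higher in ASC_HFS (below) and both have an entry in the RefSeq promoter table on GRCr8. That table matched 5 of the 8 genes. Each run gives the 250 bases before the start, 5′ to 3′ on the gene's strand, and capitals mark TGTTTAC (a forkhead motif of the FOXO type), GGGCGG (a GC box) and CCAAT, each on either strand. The motifs were chosen after these sequences had been seen.
Insr, chr12:6128804-6129053, minus strand: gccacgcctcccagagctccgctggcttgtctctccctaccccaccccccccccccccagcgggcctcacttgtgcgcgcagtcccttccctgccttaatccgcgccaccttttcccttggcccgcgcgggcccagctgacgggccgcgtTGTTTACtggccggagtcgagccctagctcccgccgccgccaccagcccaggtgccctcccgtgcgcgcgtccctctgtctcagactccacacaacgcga
Tbc1d4, chr15:84848694-84848943, minus strand: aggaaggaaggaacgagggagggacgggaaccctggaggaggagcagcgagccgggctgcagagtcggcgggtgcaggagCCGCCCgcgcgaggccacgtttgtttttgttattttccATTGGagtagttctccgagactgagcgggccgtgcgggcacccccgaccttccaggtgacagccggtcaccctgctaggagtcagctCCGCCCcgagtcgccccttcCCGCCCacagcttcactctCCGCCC
Insr held 1 TGTTTAC, starting 100 bases before the transcription start, and no GGGCGG or CCAAT. Tbc1d4 held 4 copies of GGGCGG and 1 CCAAT but no TGTTTAC. Over all 33469 promoters of the same length in the table, 3.21% held TGTTTAC, 30.5% GGGCGG and 34.0% CCAAT. None of these motifs overlapped another in the 2 windows, and a match is a description of letters and not of a bound site.

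Depth differed between the tables. Each AD library held 76083827 to 119555051 recovered reads and each ASC library 992618 to 7290961. Replicates differed by more than sampling noise in all 4 groups, with a chi-square per degree of freedom of 7.2 in AD_HFS and 319 in AD_C, whose depths were alike, so the AD_HFS pair was far closer than the AD_C pair. The values were 8.04 in ASC_HFS and 32.6 in ASC_C, but this measure grows with depth and the ASC_HFS pair was shallower, so these are not set against each other. Against the label mesenchymal stem cells, given for all 8 libraries, 13 of 14 progenitor markers were measured in each table, and their summed level was 14657 to 23826 CPM in AD and 25916 to 47885 CPM in ASC (CPM scales the reads of each library to the same total over the 14018 genes that both tables list). The 14 measured adipocyte markers summed to 27581 to 33288 CPM in AD and 2232 to 5807 in ASC, so adipocyte transcripts were present before differentiation. In bulk libraries, fewer cells of a type and less RNA per cell cannot be told apart.

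All 8 genes were higher in adipocytes than in precursors, in both diets. The tables were normalized separately. Stage, table, depth and the treatment with insulin, dexamethasone and IBMX coincide and cannot be told apart, so this is a description with no test. Both AD libraries were above both ASC libraries of the same diet for all 8 genes, which was so for 47.9% of genes in HFS and 31.4% in C.

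**Figure D1:**
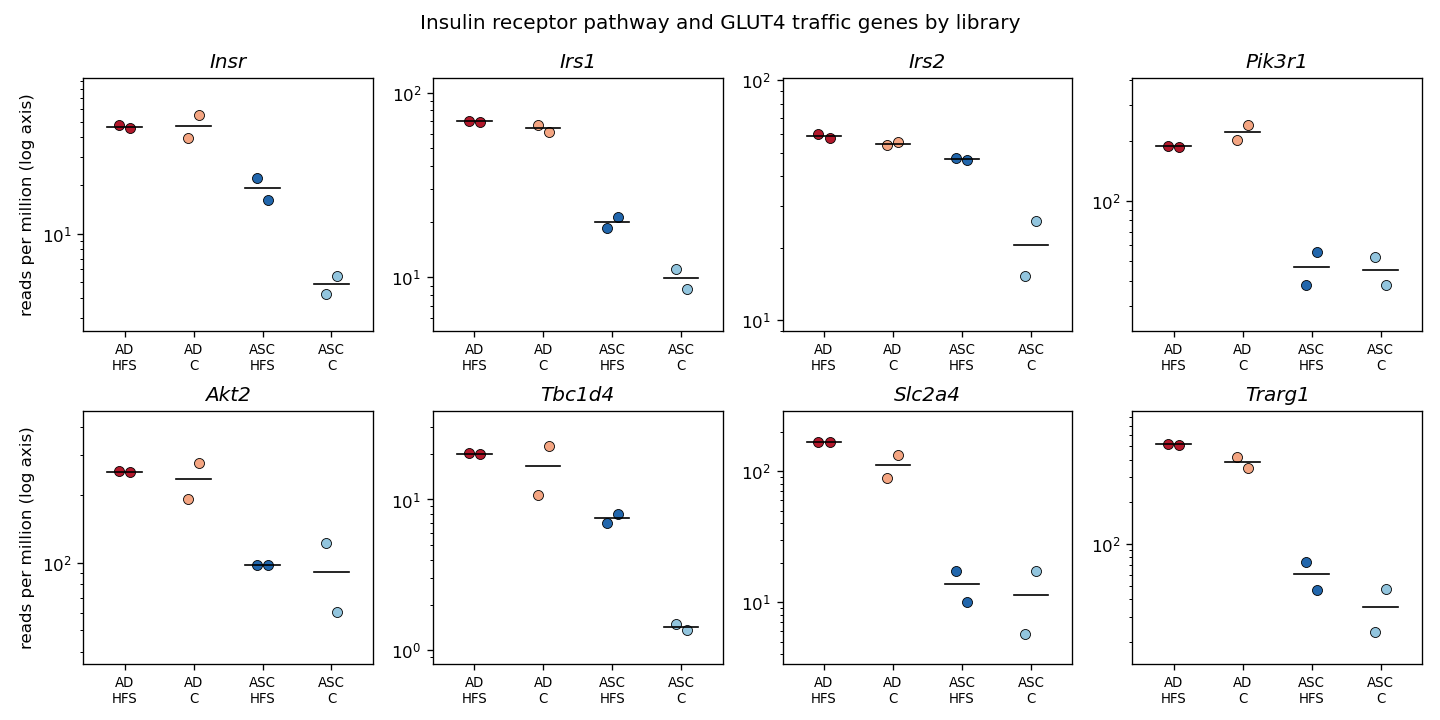
CPM of the 8 genes (log axis, a separate range per panel) in AD HFS, AD C, ASC HFS and ASC C; points are libraries and bars the mean of 2. Adipocyte libraries lie above precursor libraries in every panel, and the ASC HFS points lie above the ASC C points for Insr, Irs1, Irs2 and Tbc1d4.

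The transporter and its vesicle protein had large stage ratios in both diets. Slc2a4 (ENSRNOG00000017226) was at 167 ± 0.997 CPM in AD_HFS and 13.7 ± 5.09 in ASC_HFS, a ratio of 12.2, and at 111 ± 31.4 in AD_C and 11.4 ± 8.10 in ASC_C, a ratio of 9.75 (SD, n = 2 libraries here and below). Trarg1 (ENSRNOG00000022239) was at 512 ± 10.2 in AD_HFS and 60.5 ± 19.9 in ASC_HFS, and at 385 ± 49.7 in AD_C and 35.3 ± 16.9 in ASC_C, ratios of 8.47 and 10.9. For both genes the order of the group means was AD_HFS, AD_C, ASC_HFS, ASC_C. The ASC groups overlapped for Slc2a4, and for Trarg1 the ASC_HFS library of 46.4 lay just below the ASC_C library of 47.2 on this scale.

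The receptor and the Rab GTPase-activating protein had stage ratios that were unequal in the diets. Insr (ENSRNOG00000029986) was at 46.5 ± 1.75 CPM in AD_HFS and 19.3 ± 4.44 in ASC_HFS, a ratio of 2.41, and at 47.2 ± 10.5 in AD_C and 4.84 ± 0.916 in ASC_C, a ratio of 9.75. Tbc1d4 (ENSRNOG00000009431) was at 20.1 ± 0.317 in AD_HFS and 7.54 ± 0.744 in ASC_HFS, a ratio of 2.67, and at 16.6 ± 8.43 in AD_C and 1.43 ± 0.0887 in ASC_C, a ratio of 11.6. For both genes the AD groups overlapped and the ASC groups did not. Whether the ratios differ between diets is tested below by setting the diet difference in AD against that in ASC. Neither gene passed in the main fit of that test, and Insr passed in some other settings.

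The docking proteins, the kinase subunit and the kinase had stage ratios below those of Slc2a4 and Trarg1 in both diets. Irs1 (ENSRNOG00000014597) was at 69.8 ± 0.617 CPM in AD_HFS and 19.8 ± 1.91 in ASC_HFS, and at 63.9 ± 3.93 in AD_C and 9.86 ± 1.72 in ASC_C, ratios of 3.52 and 6.48. Irs2 (ENSRNOG00000023509) was at 58.7 ± 1.85 in AD_HFS and 47.0 ± 0.829 in ASC_HFS, and at 54.5 ± 1.11 in AD_C and 20.6 ± 7.54 in ASC_C, ratios of 1.25 and 2.65. Of the 16 stage ratios, 2 for each gene, that of Irs2 in HFS was the lowest. Pik3r1 (ENSRNOG00000018903) had ratios of 4.01 in HFS and 4.89 in C, and Akt2 (ENSRNOG00000018677) had ratios of 2.60 and 2.56, with the ASC groups overlapping for both genes.

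Set against a related gene in the same library, the balance of several pairs was unlike in the stages. Read ratios are not corrected for gene length, so they are compared between libraries only. Slc2a4 gave 2.09 and 2.16 reads per read of Slc2a1, the basal transporter GLUT1, in AD_HFS, 0.825 and 1.48 in AD_C, 0.119 and 0.0613 in ASC_HFS, and 0.0318 and 0.121 in ASC_C. Every adipocyte library thus had a ratio above every precursor library. Insr relative to Igf1r, which encodes the related receptor of insulin-like growth factor 1, was at 2.52 and 2.47 in AD_HFS and 2.25 and 2.92 in AD_C, and at 0.879 and 0.516 in ASC_HFS and 0.120 and 0.270 in ASC_C. The 2 ASC groups did not overlap in this ratio, as in several other pairs (below), and neither did ASC and AD libraries.

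Irs1 relative to Irs2 lay between 1.11 and 1.24 in the 4 AD libraries and between 0.333 and 0.725 in the 4 ASC libraries. Akt2 relative to Akt1, its widely expressed paralog, was at 1.13 and 1.22 in AD_HFS and 0.837 and 1.51 in AD_C, against 0.642 and 0.588 in ASC_HFS and 0.493 and 0.484 in ASC_C. Tbc1d4 relative to its paralog Tbc1d1 was at 0.658 and 0.616 in AD_HFS, 0.473 and 0.803 in AD_C, 0.225 and 0.216 in ASC_HFS, and 0.0400 and 0.0515 in ASC_C. For these 3 pairs too, no ASC library reached an AD library. Pik3r1 relative to Pik3r2, which encodes another regulatory subunit, ranged from 2.30 to 3.54 in AD and 0.845 to 3.44 in ASC, and Trarg1 relative to Slc2a4 from 2.62 to 4.71 in AD and 2.75 to 4.6 in ASC, so the stages overlapped for both pairs. Pik3r1 over Pik3r2 was at 2.52 and 3.44 in ASC_HFS and 0.845 and 1.73 in ASC_C. Trarg1 over Slc2a4 was at 4.32 and 4.6 in ASC_HFS and 4.11 and 2.75 in ASC_C. The ASC groups were thus apart for these pairs, as for Akt2 over Akt1 and Tbc1d4 over Tbc1d1. They overlapped for Irs1 over Irs2 and Slc2a4 over Slc2a1. How often other gene pairs lie apart was not measured.

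**Figure D2:**
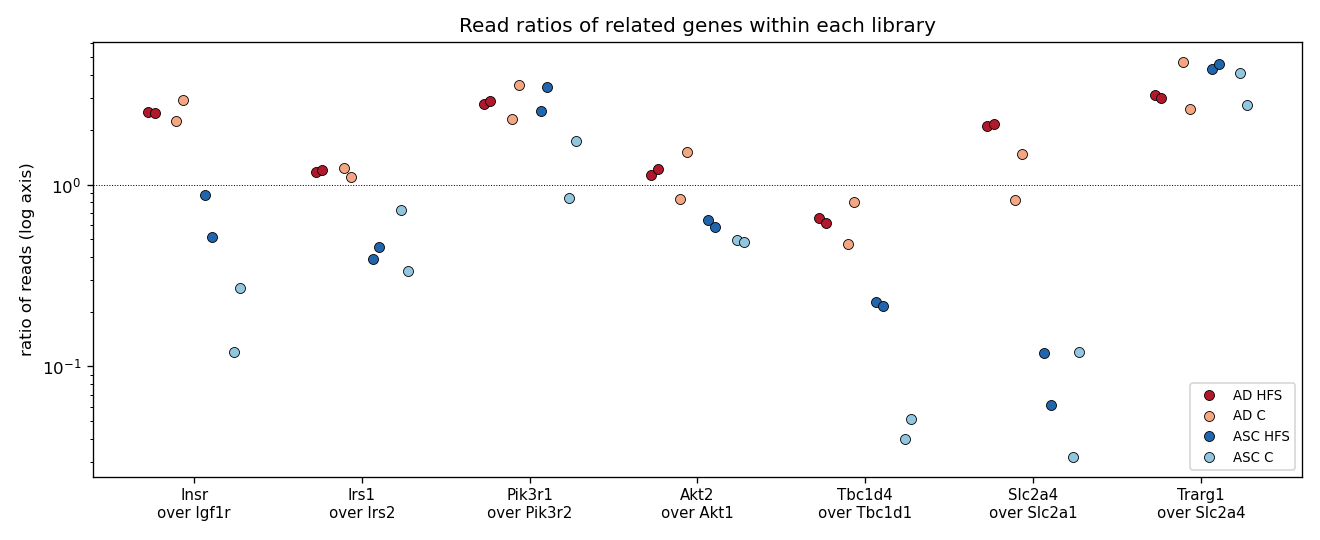
Ratio of the reads of 2 related genes within each library (log axis, dotted line at equal reads) for AD HFS, AD C, ASC HFS and ASC C; each point is 1 library. Adipocyte and precursor libraries are apart for Insr over Igf1r, Irs1 over Irs2, Akt2 over Akt1, Tbc1d4 over Tbc1d1 and Slc2a4 over Slc2a1, and overlap for the other 2 pairs.

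In the precursors, the question was whether the pathway's transcripts differed with the diet of the donor rat. Insr, Irs2 and Tbc1d4 rose in ASC_HFS, and none of the 8 genes fell. Levels within a table are given as normalized counts, the recovered reads divided by the authors' size factor. The test was limma-trend on log2(value + 1) of the deposited values, adjusted across the whole table by the Benjamini-Hochberg method, and a gene was called at an adjusted p under 0.05. It called 9.41% of all genes higher, 9.7% lower and 19.1% in either direction, so 3 of 8 genes is to be read against that background. At an unadjusted p under 0.05 there were 5 of the 8, against 33.3% of all genes. The HFS libraries lay wholly above the C libraries for 5 of the 8 and wholly below for none, against 28.5% and 32.5% of all genes. The deposited values flatten low counts, so the log2 differences of these genes are smaller than the log2 of the count ratios given beside them. Scaling by library size in place of the authors' size factors moved the split over all genes to 1044 higher and 1882 lower on log2 CPM, against 1345 and 1386 on the deposited values, and left the 3 calls in place.

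Insr was at 81.7 and 58.0 normalized counts in the ASC_HFS libraries, against 13.0 and 17.9 in the ASC_C libraries. Both HFS libraries were thus above both C libraries, with a ratio of means of 4.52 (log2 difference 0.94 ± 0.22 SE, adjusted p = 0.00979). Behind these values stood 131 and 16 reads in ASC_HFS and 14 and 40 in ASC_C. Igf1r did not pass the test (adjusted p = 0.670), with 92.9 and 112 normalized counts in ASC_HFS and 108 and 66.4 in ASC_C.

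Irs2 was at 173 and 167 normalized counts in ASC_HFS, against 47.2 and 84.7 in ASC_C. The groups did not overlap, and the ratio of means was 2.58 (log2 difference 0.91 ± 0.24 SE, adjusted p = 0.0174). Irs1 was at 67.4 and 76.2 in ASC_HFS, against 34.3 and 28.2 in ASC_C, also without overlap, at a ratio of 2.30. It did not pass the test (log2 difference 0.60, 95% interval 0.14 to 1.06, adjusted p = 0.0654).

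Tbc1d4 was at 25.6 and 29.0 normalized counts in ASC_HFS, against 4.63 and 4.48 in ASC_C. The groups were apart at a ratio of 5.99 (log2 difference 0.71 ± 0.21 SE, adjusted p = 0.0326). The counts were low, with 41 and 8 reads in ASC_HFS and 5 and 10 in ASC_C, and all 4 were above a floor of 3 reads. Its paralog Tbc1d1 did not pass (adjusted p = 0.588).

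The vesicle cargo showed wide spread between replicates. Slc2a4 was at 63.0 and 36.3 normalized counts in ASC_HFS, against 17.6 and 56.0 in ASC_C. The groups overlapped and the gene did not pass (log2 difference 0.25, 95% interval -0.32 to 0.81, adjusted p = 0.542). Trarg1 was at 272 and 167 in ASC_HFS, against 72.3 and 154 in ASC_C, with no overlap on this scale and a ratio of 1.94 (log2 difference 0.71, 95% interval 0.10 to 1.32, adjusted p = 0.0966). The low library of both genes in ASC_C was replicate 1, in which the adipocyte marker list was also low, at 2232 CPM, against 5807 in ASC_C replicate 2 and 5769 and 4479 in the ASC_HFS libraries. Insr and Irs2 were also lower in ASC_C replicate 1 (13.0 and 47.2) than in replicate 2 (17.9 and 84.7). Irs1, Pik3r1, Akt2 and Tbc1d4 were higher in replicate 1. The part of adipocyte content in these values was not tested.

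For the kinase genes the groups overlapped. Pik3r1 was at 138 and 199 normalized counts in ASC_HFS and 162 and 124 in ASC_C (adjusted p = 0.674, with a log2 difference of 0.17 that turned to -0.036 with limma-voom on reads scaled by library size). Akt2 was at 355 and 352 in ASC_HFS and 379 and 196 in ASC_C, with a wide 95% interval of -0.31 to 0.91 for the log2 difference of 0.30 (adjusted p = 0.493). A p that misses the threshold does not show that these levels are equal.

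**Figure D3:**
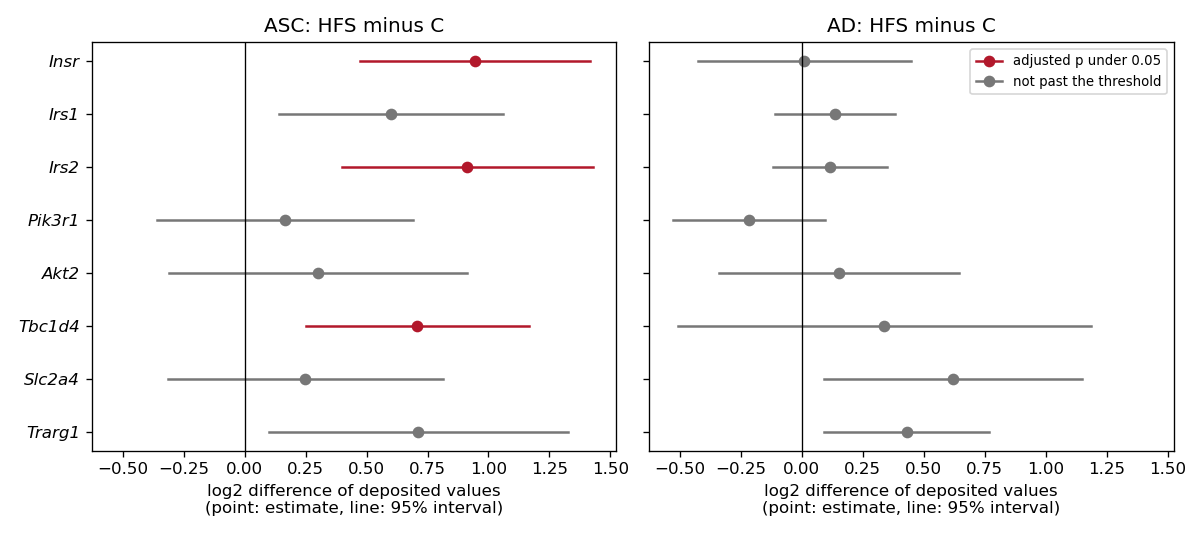
Log2 difference of the deposited values, HFS minus C, for the 8 genes in ASC (left) and AD (right); points are limma-trend estimates, lines 95% intervals, and red marks an adjusted p under 0.05. Insr, Irs2 and Tbc1d4 are red in ASC and no gene is red in AD.

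The 3 calls in ASC needed all 4 libraries. Without any 1 of ASC_HFS replicate 1, ASC_HFS replicate 2, ASC_C replicate 1 or ASC_C replicate 2, limma-trend called no gene of the table, and the adjusted p lay between 0.0923 and 0.308 for Insr, 0.125 and 0.299 for Irs2, and 0.0861 and 0.298 for Tbc1d4, with positive differences throughout. Averaging the 2 HFS libraries into 1 gave 0.130, 0.171 and 0.142. The Tbc1d4 call was also lost when ASC and AD libraries shared a fit (adjusted p = 0.0742), in which Irs1 passed (adjusted p = 0.0196).

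The same ASC libraries also differed in markers of other cells. Of 18 macrophage and myeloid markers 11 were higher, and their sum was 3620 and 3812 CPM in ASC_HFS and 1334 and 1411 in ASC_C. Of 11 endothelial markers 8 were higher (1465 and 1423 in ASC_HFS, 352 and 748 in ASC_C), and of 9 epithelial and mammary markers 7 (1258 and 1511 in ASC_HFS, 108 and 145 in ASC_C). Among adipocyte markers, 6 of 14 were higher, including the leptin gene Lep at 272 ± 66.8 normalized counts in ASC_HFS and 63.5 ± 62.3 in ASC_C. The adipocyte sum overlapped between diets, at 5769 and 4479 CPM in ASC_HFS and 2232 and 5807 in ASC_C. Of 13 progenitor markers 4 were higher and 3 lower, with Pi16 at 5266 ± 1376 in ASC_HFS and 794 ± 550 in ASC_C and Pdgfra at 579 ± 60.1 in ASC_HFS and 2116 ± 454 in ASC_C. The progenitor markers summed to 45287 and 47885 CPM in ASC_HFS and 25916 and 29382 in ASC_C. Of the markers measured, 0 were without reads in every ASC library. The 4 measured of 13 markers of skeletal muscle, another tissue rich in GLUT4, summed to 6.72 to 10.6 CPM in ASC, and none was called. Smooth muscle and pericyte markers summed to 329 and 236 CPM in ASC_HFS and 542 and 463 in ASC_C. Of these 10 markers 3 were higher and 2 lower. The higher ones included Abcc9, at 140 ± 1.67 normalized counts in ASC_HFS and 39.6 ± 20.7 in ASC_C. The lower ones were Tagln, at 247 ± 1.13 in ASC_HFS and 776 ± 170 in ASC_C, and Acta2, at 149.9 ± 42.8 in ASC_HFS and 441 ± 11.4 in ASC_C. Of 4 measured lymphoid markers 1 was lower, Cd8a, at 2.49 and 0 normalized counts in ASC_HFS and 47.2 and 25.6 in ASC_C. These counts stand beside 9.41% of all genes higher and 9.7% lower. The part of other cell types in the Insr, Irs2 and Tbc1d4 differences was not tested.

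**Figure D4:**
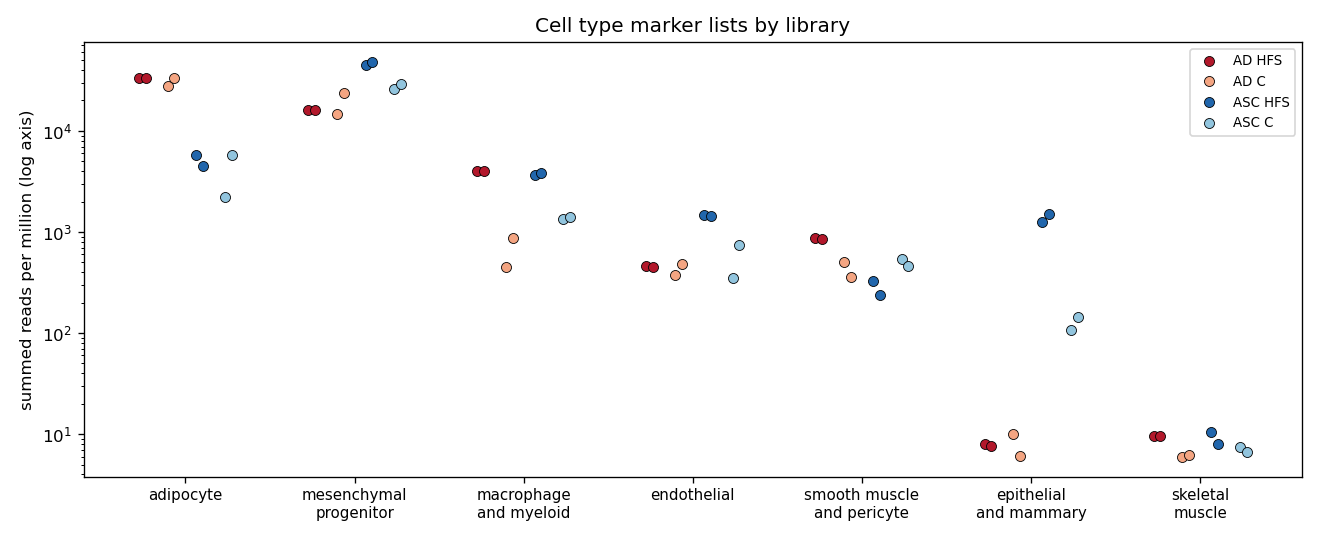
Summed CPM (log axis) of 7 cell type marker lists in AD HFS, AD C, ASC HFS and ASC C; each point is 1 library. Progenitor, macrophage, endothelial, epithelial and skeletal muscle sums are higher in ASC HFS than in ASC C, and the smooth muscle sum is lower. Macrophage, smooth muscle and skeletal muscle sums are higher in AD HFS than in AD C. The other sums overlap between diets.

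Around the 8 genes, several negative regulators of insulin and cytokine signalling rose in ASC_HFS. Of the 28 other insulin signalling genes reported, 0 passed limma-trend (median log2 difference 0.20, against -0.04 over all genes), 7 had an unadjusted p under 0.05, and limma-voom called 0 by library size and 1 by the deposited size factors. Of 19 measured inhibitors 4 rose and none fell (median 0.51), where 9.41% of all genes rose and 9.7% fell. The counts were 4 higher and 1 lower by limma-voom scaled by library size, and 7 higher and 1 lower by limma-voom with the deposited size factors. Socs1, a suppressor of cytokine signalling that also binds IRS proteins, was at 217 ± 46.4 in ASC_HFS and 38.6 ± 13.9 in ASC_C, a ratio of 5.64 (adjusted p = 7.80e-04). Cish, which restrains cytokine receptors, had a ratio of 4.44, the pseudokinase gene Trib1 one of 4.16 and Phlpp1, whose phosphatase removes an activating phosphate from AKT, one of 3.15 (adjusted p = 0.00101, 0.00103 and 0.00586). Each of these 4 was called under all 6 scalings tried. Like every call in ASC, these needed all 4 libraries (above). The part of other cell types in the differences of these 4 and of the list genes below was not tested. Whether the 2 lists differ was not tested.

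Of 35 measured genes of GLUT4 vesicle traffic other than the members, 5 rose and 1 fell in ASC_HFS (median -0.04), against 9.41% and 9.7% of all genes. The share of higher genes was thus a little above that of all genes and the share of lower genes below it. Neither share was tested. The caveola coat gene Cavin1 had a ratio of 3.16, Dennd4c, the exchange factor for the vesicle GTPase RAB10, one of 3.74, the recycling gene Ehd1 one of 2.17 and the clathrin heavy chain gene Cltc one of 2.04 (adjusted p = 0.00644, 0.0252, 0.0268 and 0.0357). Vamp3, a vesicle SNARE, fell to 254 ± 19.99 in ASC_HFS, against 510 ± 62.3 in ASC_C (adjusted p = 0.0315). On log2 CPM the count was 2 higher and 2 lower, without Ehd1 and Cltc, and by limma-voom scaled by library size it was 5 higher and 3 lower. The resident cargo genes Lnpep, which encodes the aminopeptidase IRAP, and Sort1, which encodes sortilin, did not pass (adjusted p = 0.699 and 0.188).

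For glucose entry, 3 of 13 measured genes rose in ASC_HFS and none fell (median 0.13, which was -0.03 on log2 CPM), against 9.41% and 9.7% of all genes. A single gene was called lower by upper quartile scaling, on log2 CPM and by both limma-voom fits. The high-affinity transporter gene Slc2a3 was at 532 ± 196 in ASC_HFS and 210 ± 4.82 in ASC_C, and the hexokinase gene Hk2 was at 2846 ± 210 in ASC_HFS and 1224 ± 909 in ASC_C (adjusted p = 0.0157 and 0.0372, the call of Hk2 being lost after quantile normalization). Arrdc4, an arrestin relative of the glucose uptake inhibitor TXNIP, had a ratio of 2.64 (adjusted p = 0.00993). Slc2a1 did not pass (adjusted p = 0.772), with 531 and 591 in ASC_HFS and 554 and 464 in ASC_C.

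Genes listed as targets of FOXO factors, which insulin restrains, went both ways, with 3 of 17 measured higher and 2 lower (median -0.07). Of all genes 9.41% were higher and 9.7% lower, so the share of lower genes was near that of all genes and the share of higher genes above it. Neither share was tested. Whether insulin or FOXO factors act on each listed gene, G6pc3 included, was not tested. Bcl2l11, Cited2 and Pdk4, the last of which encodes a brake on pyruvate oxidation, had ratios of 3.86, 2.60 and 2.37 (adjusted p = 0.00495, 0.00695 and 0.0343, the call of Pdk4 being lost after quantile normalization). Klf15 fell to 10.99 ± 4.97 in ASC_HFS, against 44.8 ± 7.02 in ASC_C, and G6pc3 to 51.4 ± 41.9 in ASC_HFS, against 205 ± 70.8 in ASC_C (adjusted p = 0.0267 and 0.00791). Of the 15 insulin-induced lipogenic genes reported, 2 rose and 3 fell (median -0.09), against the same shares of all genes. Dgat2 and Thrsp had ratios of 2.24 and 2.73, while Elovl6, Gpam and Acly had ratios of 0.193, 0.484 and 0.534 (adjusted p = 0.0208, 0.0262, 0.0342, 0.0402 and 0.0485). The call of Thrsp was lost after quantile normalization. The Elovl6 means, 5.81 ± 2.04 in ASC_HFS and 30.1 ± 3.27 in ASC_C, included an ASC_HFS library below its floor of 3 reads, equal to 10.9 normalized counts. Foxo1 itself was at 26.8 and 68.9 in ASC_HFS and 9.26 and 19.3 in ASC_C and did not pass (adjusted p = 0.0827).

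In the differentiated adipocytes, the question was whether cells grown from HFS precursors still differed. None of the 8 genes passed limma-trend, where 1.34% of all genes were called in either direction, 1.31% higher and 0.0329% lower. At an unadjusted p under 0.05 there were 2 of the 8, Slc2a4 and Trarg1, against 13.9% of all genes.

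Slc2a4 was at 16215 and 16298 normalized counts in AD_HFS, against 8574 and 12822 in AD_C. Both HFS libraries were above both C libraries at a ratio of 1.52 (log2 difference 0.62, 95% interval 0.09 to 1.15, adjusted p = 0.286). Trarg1 was at 50499 and 48941 in AD_HFS, against 40399 and 33577 in AD_C, also apart, at a ratio of 1.34 (log2 difference 0.43, 95% interval 0.09 to 0.77, adjusted p = 0.255). The libraries lay apart with HFS higher for 24.2% of all genes. The C library lowest for Slc2a4 was AD_C replicate 1, whose adipocyte markers summed to 27581 CPM, against 33288 in AD_C replicate 2 and 33155 and 33148 in AD_HFS, while Trarg1 was higher in AD_C replicate 1 than in replicate 2. The part of adipocyte content was not tested.

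The group means of Insr, Irs1 and Irs2 were close in AD, although for Insr the C libraries lay on either side of the HFS libraries. Insr was at 4643 and 4388 normalized counts in AD_HFS and 3824 and 5241 in AD_C, a ratio of 0.996 (95% interval of the log2 difference -0.43 to 0.45, adjusted p = 0.988). Irs1 was at 6828 and 6721 in AD_HFS and 6417 and 5872 in AD_C, and Irs2 at 5830 and 5557 in AD_HFS and 5171 and 5312 in AD_C. Both had the HFS libraries above the C libraries by small margins, at ratios of 1.10 and 1.09 (upper 95% bounds of the log2 difference 0.38 and 0.35, adjusted p = 0.592 and 0.632).

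Pik3r1 was at 18244 and 18082 normalized counts in AD_HFS, against 19351 and 23099 in AD_C, a ratio of 0.856 with both HFS libraries lower (95% interval of the log2 difference -0.53 to 0.10, adjusted p = 0.512). Libraries were apart with HFS lower for 23.5% of all genes. Akt2 was at 24812 and 24390 in AD_HFS and 18484 and 26462 in AD_C, and Tbc1d4 at 1975 and 1925 in AD_HFS and 1022 and 2164 in AD_C. For both genes the HFS libraries lay between the C libraries (adjusted p = 0.773 and 0.700), so the sign of their difference turned on AD_C replicate 1: without it the log2 difference was -0.10 for Akt2 and -0.14 for Tbc1d4, and without AD_C replicate 2 it was 0.41 and 0.82.

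These AD results depended on which C library was kept. Without AD_C replicate 1 the test called 5 of the 8 genes, and without AD_C replicate 2 it called 6, in fits whose spread came from the close HFS pair alone and which assume that the lone C library varies like it. In these fits 7106 and 9830 genes of the table were called. Without AD_HFS replicate 1 or AD_HFS replicate 2, limma-trend called none of the 8 and no gene of the table.

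Few other genes of the pathway passed in AD. None of 28 insulin signalling genes, 19 inhibitors, 36 GLUT4 traffic genes or 15 lipogenic genes was called, with medians of 0.01, -0.02, 0.11 and 0.36 against -0.01 over all genes. At an unadjusted p under 0.05 there were 2, 1, 8 and 2 of these lists, and both limma-voom fits called 0. Slc2a3 fell to 7590 ± 88.9 in AD_HFS, against 14337 ± 1299 in AD_C (adjusted p = 0.0448). In ASC it had risen, but its diet differences in the stages are not compared by a test here. The hexokinase gene Hk3 was at 3466 ± 78.4 in AD_HFS and 1019 ± 224 in AD_C. The receptor gene Erbb3, which FOXO factors induce and insulin represses, was at 412 ± 48.7 in AD_HFS and 68.1 ± 13.9 in AD_C (adjusted p = 0.0351 for Hk3 and for Erbb3). Upper quartile scaling lost all 3 of these calls, and that of Slc2a3 was also lost by quantile normalization and by both limma-voom fits. Of 18 macrophage markers 11 were higher, with sums of 4036 and 4048 CPM in AD_HFS and 453 and 865 in AD_C, where 1.31% of all genes were higher. The count was 6 by upper quartile scaling and by both limma-voom fits, 7 after quantile normalization and 8 on log2 CPM. Their part in the Hk3, Erbb3 and Slc2a3 values was not tested.

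The diet difference of each gene was then set against its difference in the other stage, as (HFS minus C in AD) minus (HFS minus C in ASC), in a single limma-trend fit of all 8 libraries. None of the 8 genes passed, where 12.5% of all genes did in either direction (7.53% higher and 4.93% lower), and 2 had an unadjusted p under 0.05, against 30.2% of all genes. For Insr the log2 difference was 0.01 in AD and 0.94 in ASC, and their difference was -0.93 (95% interval -1.55 to -0.32, adjusted p = 0.0528). For Irs2 it was 0.11 in AD and 0.91 in ASC, a difference of -0.80 (95% interval -1.38 to -0.22, adjusted p = 0.0712). The deposited values flatten low counts, which ASC libraries had more of. On recovered reads the difference for Insr was larger, at -2.05 by limma-voom (adjusted p = 0.0442) and -1.79 on log2 CPM (adjusted p = 0.0205). On the deposited scale Insr also passed with a minimum mean value of 50 (adjusted p = 0.0484) and after quantile normalization (adjusted p = 0.0448). It did not pass with a pseudocount of 5, upper quartile scaling or a replicate block (adjusted p = 0.0576, 0.0684 and 0.0810). Of 12 other settings that left out no library, Insr passed in 5 and Irs2 in 0. These settings include the fit without a filter on low values, which is the main fit again. With single libraries left out, the difference ran from -1.15 to -0.72 for Insr and from -1.03 to -0.57 for Irs2. The split over all genes was 1535 higher and 610 lower on log2 CPM, against 1056 and 691 on the deposited values.

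For Tbc1d4 the same comparison gave -0.37 (95% interval -1.21 to 0.47, adjusted p = 0.547), and on recovered reads -1.94 by limma-voom (adjusted p = 0.277) and -1.46 on log2 CPM (adjusted p = 0.0842), so the call in ASC and its lack in AD are not shown to differ. Slc2a4 gave 0.37 (95% interval -0.48 to 1.23) and Trarg1 -0.28 (95% interval -1.12 to 0.55), with adjusted p = 0.550 and 0.656. On the deposited scale Irs1, Pik3r1 and Akt2 gave -0.46, -0.38 and -0.15 (adjusted p = 0.187, 0.381 and 0.824), and Irs1 gave -0.88 by limma-voom (adjusted p = 0.158).

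The genes whose profile was most like each of the 8 were found by Pearson correlation of log2(CPM + 1) over the 8 libraries, among 10628 other genes with a mean of at least 5 CPM. All points share the contrast of stage and depth, so the values describe likeness only. For Slc2a4 they were Tspan14, Tst and Cs, which encodes citrate synthase (r = 0.999, 0.996 and 0.995). For Trarg1 they were Clec3b, Tns1 and Adora1, which encodes the adenosine A1 receptor (r = 0.996, 0.996 and 0.996). For Irs1 they were Ralgapa2, whose product is a subunit of an AKT-regulated GTPase-activating complex for RAL and was on the GLUT4 traffic list, the clock gene Per1 and the prostaglandin receptor gene Ptger3 (r = 0.999, 0.996 and 0.995). Insr was nearest to Col6a3, Mst1 and Zc3h4 (r = 0.991, 0.990 and 0.989), and Tbc1d4 to Lsmem2, Cmklr1 and Mst1 (r = 0.988, 0.987 and 0.987), so that Mst1 was near both genes called in ASC_HFS with a promoter shown. Irs2 was nearest to Trak1, Ca3 and Ankrd52, Pik3r1 to ND2, Fam117b and Atrnl1, and Akt2 to Zfp426, Slc25a45 and Bcorl1, with r between 0.983 and 0.996.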

How the data were processed

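Per the submitters' processing notes, FastQC, STAR, featureCounts and DESeq2 were used with the builds mRatBN7.2 and rn7; versions, roles, strand setting and settings are not given in the sources used here. Without a strand setting, reads of overlapping antisense genes cannot be told apart. The labels name polyA RNA and also an rRNA depletion kit. The authors deposited 2 tables, 1 per stage, whose values are a normalized signal with a single lowest value above 0. The values have the form of the antilog of variance-stabilized counts, and (value - lowest)²/value gave normalized counts that were whole multiples of 1 read for 100% of values in every library (tolerance 0.001 read). Reads, normalized counts and CPM come from this step; all 8 columns were used.

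HFS was tested against C within each table on log2(value + 1), two-sided, with limma-trend in limma 3.58.1 under R 4.3.3. A filter at a mean value of 10 removed no gene. The fit within a table had 2 residual degrees of freedom per gene and that of all 8 libraries had 4, moderated across genes. Stage levels were not tested. Values carry mean ± SD over 2 libraries, and floors of 3 reads cover counting error only. The 8 genes, the lists and the tests were chosen with earlier results of these data known. All 8 genes are reported; of each pathway list, up to 4 called genes per direction with the smallest p, of marker lists up to 3, and the 3 likest genes of each member were open to naming. Slc2a1, Igf1r, Tbc1d1, Akt1, Pik3r2, Foxo1, Lnpep and Sort1 were added after their values were seen. Some list genes, such as Socs3, Snap23, Rhoq and Pecam1, were not analysed here, and some results on the insulin signalling and lipogenic lists are not reported here; their counts and medians cover the genes reported. Alternatives were other pseudocounts, filters, scalings, fits and left-out libraries; those on an averaged HFS pair and on size-factor scaled limma-voom were chosen after seeing the data. Python 3.11.15 with pandas 2.3.3 and matplotlib 3.10.9 was used. The RefSeq promoter table is on GRCr8, and no coordinates were moved between builds.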

Additional observations from a re-analysis of the deposited data

How the results depend on the processing

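In ASC, averaging the HFS pair left 0 of the 8 genes and 0 genes of the table called (3393 at an unadjusted p under 0.05), and limma-voom with the deposited size factors called 5 of the 8, adding Irs1 and Trarg1. The Tbc1d4 call was also lost with all 8 libraries in 1 fit (adjusted p = 0.0742). In AD, 244 genes were called, and 95 by upper quartile scaling, 141 by limma-voom, 150 by limma-voom with the deposited size factors, 423 when AD and ASC shared 1 fit, and 0 after averaging the HFS pair (857 at an unadjusted p under 0.05), with none of the 8 genes among them. For the comparison of stages, 1747 genes were called, 2 with the HFS pair averaged, and of the 8 genes 1, Insr, was called with a mean value of at least 50, after quantile normalization, on log2 CPM, by limma-voom and by limma-voom with the deposited size factors. The cause of these shifts was not tested.

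A replicate block, which pairs libraries by number although the labels do not link them, called 661 genes in AD, none of the 8, and changed no call of the 8 in ASC or between stages. Leaving out 1 library at a time gave 0 to 0 genes in ASC (0 to 0 of the 8), 0 to 9830 in AD (0 to 6 of the 8) and 425 to 2382 between stages (0 to 1 of the 8), and kept 16 of 16 stage ratios above 1.

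Signs turned for genes that had not passed in the main fits. Pik3r1 in ASC was at -0.036 by limma-voom, and Insr in AD at -0.010 by limma-voom and -0.0030 on log2 CPM. With single libraries left out, the log2 difference ran from -0.027 to 0.36 for Pik3r1, -0.085 to 0.68 for Akt2 and -0.11 to 0.60 for Slc2a4 in ASC. It ran from -0.21 to 0.23 for Insr, -0.10 to 0.41 for Akt2 and -0.14 to 0.82 for Tbc1d4 in AD. Between stages it ran from -0.53 to 0.24 for Akt2, -0.85 to 0.11 for Tbc1d4 and -0.64 to 0.075 for Trarg1. TMM scaling was not run, and limma-voom used library size. Every list gene named as risen or fallen kept its sign under all 6 scalings. Scaling ASC by library size moved the median of all genes to -0.23 by limma-voom, against -0.04 on the deposited values. Depth limits Tbc1d4 in ASC most, where a library held as few as 5 reads.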
